A study of Mus musculus with 152 samples.

Results

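The 9 genes described here encode the steps by which liver mitochondria take up and shorten long-chain fatty acids: the carnitine shuttle (Cpt1a, Slc25a20 and Cpt2), the acyl-CoA dehydrogenases (Acadvl, Acadl and Acadm), the subunits of the trifunctional protein (Hadha and Hadhb) and the thiolase Acaa2. They were chosen by symbol, after matching the Ensembl identifiers of the tables, and make up 9 of 54532 genes. None of the 9 makes ketone bodies, so the ketone-synthesis genes are described from a separate list. All animals were C57BL/6J mice, an inbred laboratory strain, and all RNA came from liver. The mice received from 8 weeks of age either the purified control diet or LIDPAD, the diet used here to induce non-alcoholic fatty liver disease, for 1, 4, 8, 12, 16, 32 or 48 weeks, which gave 14 groups. The labels give neither the composition of LIDPAD nor the sex of the mice. The 152 deposited columns came in blocks of 4 that matched each other as parts of a single library would, and each block was averaged and counted as 1 library. This left 18 control and 20 LIDPAD libraries. Both diets had 2 libraries in each of weeks 1, 4, 8 and 12 and 3 in week 16. Week 32 had 4 of the control diet and 5 of LIDPAD, and week 48 had 3 and 4. Whether each library is its own animal is not in the labels, and the p-values therefore measure the spread between libraries only, which may be technical.

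Long-chain fatty acids are first activated to acyl-CoA, and CPT1A at the outer mitochondrial membrane exchanges the CoA for carnitine, the step that malonyl-CoA inhibits. The carrier SLC25A20 moves acylcarnitine across the inner membrane, where CPT2 restores the acyl-CoA, which then passes through repeated rounds of dehydrogenation, hydration, a second dehydrogenation and thiolysis. In the fasted liver much of the acetyl-CoA so formed becomes ketone bodies, and the nuclear receptor PPAR alpha is the best known activator of these genes in mouse liver.

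Where these genes lie and what precedes them is shown first, because members of the same pathway did not move alike. In GRCm38 (GENCODE vM21), Hadha (chr5:30118304-30155162, minus strand) and Hadhb (chr5:30155248-30184593, plus strand) start 86 bases apart and are read away from each other. The 300-base windows around their RefSeq starts, which differ from those of GENCODE, share 228 bases. Cpt1a lies at chr19:3322334-3385733 on the plus strand and Acadm at chr3:153922357-153944632 on the minus strand. Promoter windows, from 250 bases before to 50 after the start, were taken from RefSeq (GRCm38.p6), which matched 8 members. The windows of Cpt1a (chr19:3323051-3323350, plus strand) and Acadm (chr3:153944594-153944893, minus strand) are printed because Cpt1a is the entry step and Acadm had the largest mean change, and that of Hadhb (chr5:30155003-30155302, plus strand) because it is shared with Hadha. Capitals mark GC boxes (GGGCGG), the nuclear receptor half-site (AGGTCA) and the CCAAT box, on either strand.
Cpt1a: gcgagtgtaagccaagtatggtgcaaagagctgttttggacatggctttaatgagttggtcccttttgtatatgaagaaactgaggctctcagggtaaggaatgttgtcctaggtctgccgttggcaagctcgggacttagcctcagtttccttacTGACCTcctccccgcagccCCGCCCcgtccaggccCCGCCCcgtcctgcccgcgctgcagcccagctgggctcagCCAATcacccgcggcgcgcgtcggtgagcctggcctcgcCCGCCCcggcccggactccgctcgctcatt
Acadm: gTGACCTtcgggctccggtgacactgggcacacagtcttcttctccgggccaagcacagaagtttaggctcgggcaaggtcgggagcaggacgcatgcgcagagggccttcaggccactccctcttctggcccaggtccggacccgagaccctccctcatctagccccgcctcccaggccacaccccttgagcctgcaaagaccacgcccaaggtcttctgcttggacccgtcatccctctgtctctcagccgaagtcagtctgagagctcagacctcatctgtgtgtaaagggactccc
Hadhb: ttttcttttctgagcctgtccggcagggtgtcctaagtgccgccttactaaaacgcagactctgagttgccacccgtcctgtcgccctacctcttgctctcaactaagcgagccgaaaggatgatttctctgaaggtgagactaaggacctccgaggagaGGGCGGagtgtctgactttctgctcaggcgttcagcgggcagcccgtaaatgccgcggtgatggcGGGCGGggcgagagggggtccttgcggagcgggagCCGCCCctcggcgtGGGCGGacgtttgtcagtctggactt
A half-site was present in 3 of 8 members' windows (Acadm, Acadvl and Cpt1a), against 16.3% of 32851 promoters. GC boxes were present in 6 of 8, against 35.7% of promoters, and a CCAAT box in 1 of 8 (Cpt1a), against 37.4%. The only GC box of Hadha is the same site as a box of Hadhb, in the bases their windows share, so these members are not separate counts. DR1, a direct repeat of AGGTCA with 1 free base between the copies and a form of the element that PPAR alpha binds with RXR, was in 0 of 8 windows and in 0.0396% of all promoters, and the CRE TGACGTCA was in 0 of 8 and 1.79%. These are matches of letters in 300 bases and say nothing about binding elsewhere.

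The other members lie at chr4:107903981-107923610 (Cpt2, minus strand), chr9:108662088-108684641 (Slc25a20, plus strand), chr1:66830839-66863277 (Acadl, minus strand), chr11:70010183-70015411 (Acadvl, minus strand) and chr18:74779197-74806208 (Acaa2, plus strand). Acadvl overlaps Dvl2 and Mir324 on the opposite strand, Hadha overlaps Garem2 on the opposite strand, Hadhb holds Mir1960, and Acadl overlaps the processed pseudogene Gm15793 and the snRNA Gm27934. The strand setting of the authors' counting is not given in the sources used here, so reads of these overlaps cannot be assigned with certainty.

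Levels are in FPM, the authors' scaled counts, whose values are whole multiples of 1 step in each column. A change is the LIDPAD mean of log2(FPM + 0.5) less the control mean, ± SE. Depth was 10870033 to 53802026 reads per library (median 28967976). All 7 hepatocyte markers were above 0 in all libraries, and markers of skeletal muscle, which also burns fat, summed to at most 5.35 FPM. High sums of the cholangiocyte markers rest largely on Spp1, with a maximum of 401 FPM against at most 21.1 FPM for each other marker. High adipocyte sums rest on Cfd, with a maximum of 102 FPM against at most 0.385 FPM for each other marker. LIDPAD library 1 of week 32 stood apart from the other LIDPAD libraries of that week: it was the shallowest library, its hepatocyte markers summed to 116400 FPM against 40170 to 46820 FPM in the other 4 and 93370 to 111700 FPM in the controls. Its erythroid markers summed to 1652 FPM against 258 to 303 FPM in the other 4, and its adipocyte markers to 0.165 FPM, within the range of the controls (0.0907 to 1.18 FPM), against 9.39 to 23.8 FPM. Its cholangiocyte markers, at 455 FPM, were above those of every control (13.3 to 51.8 FPM). Whether its diet label is right was not tested. LIDPAD library 2 of that week had 1853 FPM of macrophage markers against 368 to 504 FPM in the other 4. Control library 3 of week 48 stood apart from controls 1 and 2, with 176 FPM of cholangiocyte markers against 18.5 and 23.4 FPM, 530.1 FPM of stellate cell and fibroblast markers against 366 and 315 FPM, and 31.4% of reads from the mitochondrial genome against 26.9% in each of the others. Its chi-square per gene was 18.2 and 17.5 to controls 1 and 2, which had 4.57 between them. Libraries fell into 3 sets by how their reads were divided among the 4 columns: weeks 1 to 12 (set A), week 16 with control 1 to 3 and LIDPAD 1 to 3 of week 32 (set B), and week 48 with the remaining 3 libraries of week 32 (set C). What the sets were is not in the labels.

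Up to week 16 the livers of LIDPAD-fed mice held more transcript of the carnitine shuttle and of the medium-chain dehydrogenase Acadm than control livers, by 1.32 to 1.93 times where a gene passed the test. Of the trifunctional protein, the very long-chain dehydrogenase Acadvl and the thiolase Acaa2, Hadhb alone passed in that period, at week 12, and the long-chain dehydrogenase Acadl rose at week 8. At weeks 32 and 48 no member was higher by the test, and Acaa2 was lower at week 32. In bulk tissue, fewer cells of a type and less RNA per cell cannot be told apart.

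With limma's moderated test and Benjamini-Hochberg adjustment over all genes tested, 5 of the 9 members rose at week 8, where 3.85% of 13271 genes rose. At week 12, 5 of 9 rose against 8.99% of genes, and at week 16, 4 of 9 against 16.3%. At week 32, 0 of 9 rose and 1 fell (Acaa2), against 18.0% of genes higher and 8.82% lower. At week 1, 0 of 9 were called (1.99% of genes were, in either direction), at week 4, 0 of 9 (0.287%), and at week 48, 0 of 9 (9.87%). In those 3 weeks 5, 5 and 3 members had an unadjusted p under 0.05; edgeR called 0 in each, and DESeq2 called 2, 3 and 2. All 9 members passed the filter of 1 FPM in every week, and the lowest value of any member was 24.0 FPM.

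The groups were apart in more members than were called. All LIDPAD libraries lay above all control libraries in 8 of 9 members at week 1 (24.2% of all genes did so) and in 8 of 9 at week 4 (21.3%), in 9 of 9 at week 8 (28.3%), 7 of 9 at week 12 (29.3%) and 4 of 9 at week 16 (23.5%). At week 32 this held for 0 of 9 (17.0%), with 1 wholly below (8.80%), and at week 48 for 2 of 9 (14.1%), with 1 wholly below (10.7%). The number of calls rested on single libraries: without either LIDPAD library of week 8, 0 members were called, and at week 12 the count was 1 without LIDPAD library 1 and 2 without library 2. The share of all genes called in each such fit is not reported here. Their number ran over 2810 to 4058 at week 16 and 134 to 5714 at week 48, against 3928 and 1462 with all libraries. Of the members, the count was 2 at week 16 without LIDPAD library 2, and 4 at week 48 without control library 3. At week 1 it was 2 or 5 without LIDPAD library 1 or 2, and at week 4 it was 4 or 1 without control library 1 or 2.

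**Figure D1:**
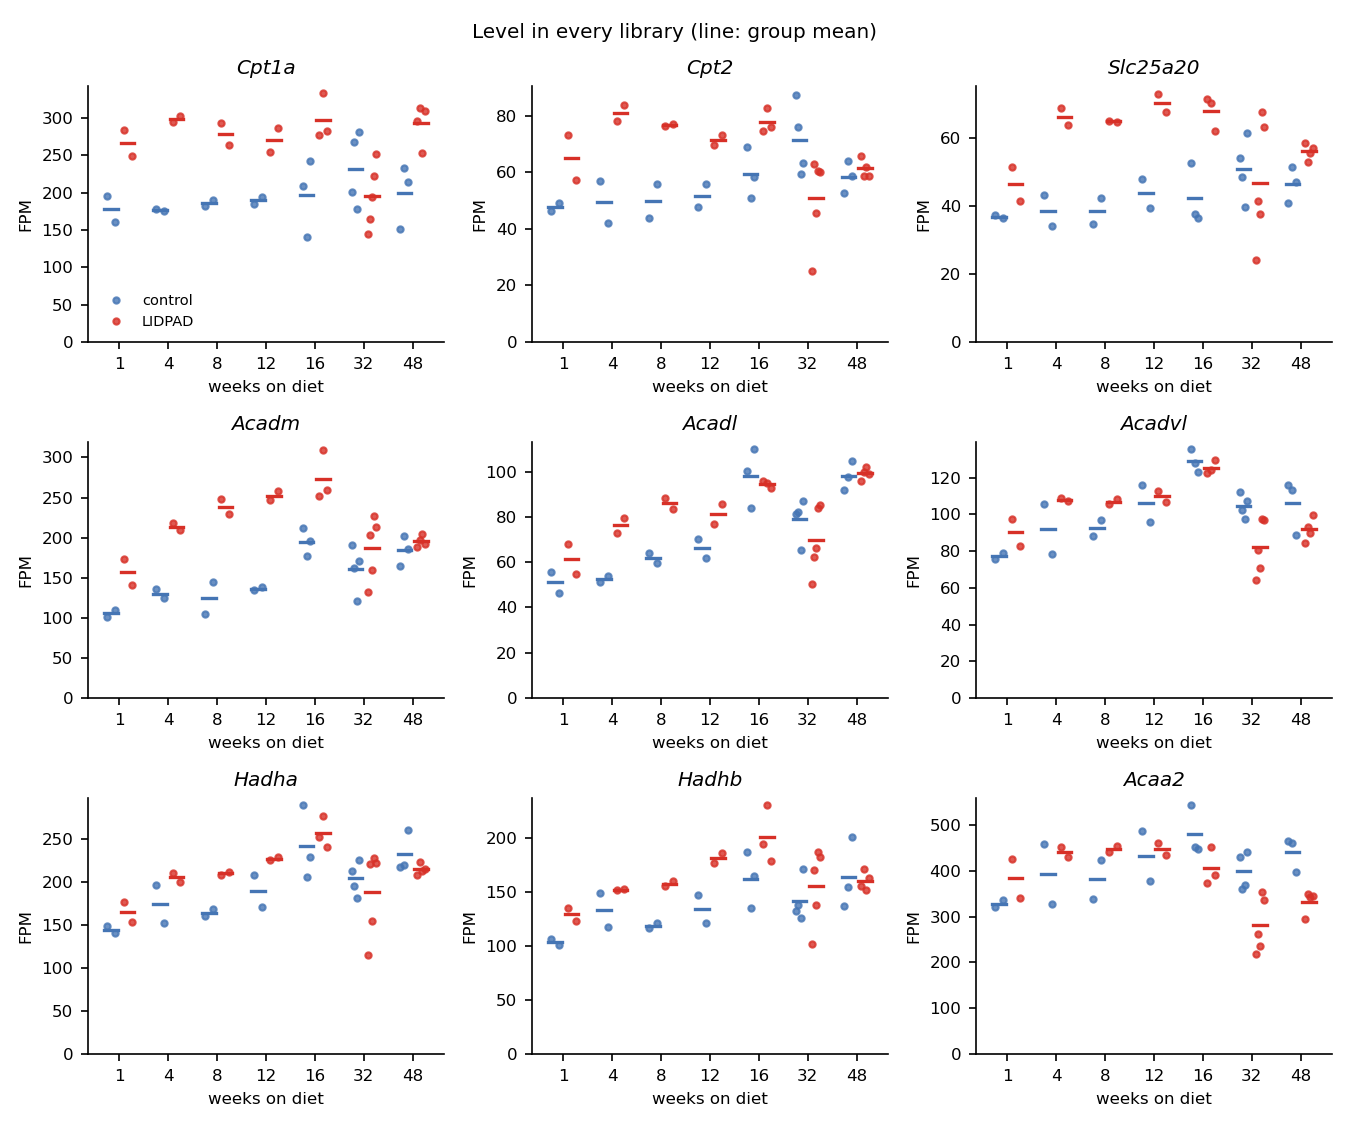
Levels of the 9 genes in each of the 38 libraries by weeks on diet, in FPM; each point is 1 library and the lines mark the group means of control and LIDPAD. The LIDPAD points of Cpt1a and Acadm lie above the control points from week 1 to week 16, and those of Acaa2 lie below them at weeks 32 and 48.

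Cpt1a, the rate-limiting entry enzyme, rose at weeks 8, 12 and 16. At week 1 its level was 196 and 161 FPM in control and 284 and 249.6 FPM in LIDPAD libraries. At week 4 it was 178 and 176 FPM in control and 295 and 302 FPM in LIDPAD libraries. Both weeks had the diets apart, with changes of 0.58 ± 0.13 and 0.75 ± 0.15, yet neither passed (adjusted p = 0.0889 and 0.148, limma). At week 8 the level was 183 and 190.0 FPM in control and 294 and 264 FPM in LIDPAD libraries. At week 12 it was 185 and 195 FPM in control and 255 and 286 FPM in LIDPAD libraries. At week 16 it was 209, 140.1 and 242 FPM in control and 277, 333 and 282 FPM in LIDPAD libraries. In each of these weeks the lowest LIDPAD library lay above the highest control library, and at week 16 control library 2 was well below the other controls. The log2 changes were 0.58 ± 0.11, 0.51 ± 0.11 and 0.62 ± 0.17 (limma adjusted p = 0.0348, 0.0171 and 0.0202). The call was lost at weeks 8 and 12 without either LIDPAD library, where the changes were 0.50 and 0.66 at week 8 and 0.59 and 0.42 at week 12, and at week 16 without LIDPAD library 2 (0.54).

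At week 32 Cpt1a was at 201, 268, 179 and 282 FPM in control and 144, 165, 194, 223 and 251 FPM in LIDPAD libraries. The groups overlapped, with LIDPAD libraries 1 and 2 below every control and libraries 4 and 5 within the control range (-0.25 ± 0.20, adjusted p = 0.387, limma). At week 48 it was at 151, 233 and 215 FPM in control and 296, 314, 253 and 309.6 FPM in LIDPAD libraries. All 4 LIDPAD libraries again lay above all 3 controls, with a change of 0.57 ± 0.16 that did not pass (adjusted p = 0.0629, limma). It passed without control library 3 (0.64), the library that stood apart. With 1 library left out, 134 to 5714 genes in all were called at week 48, against 1462 with all libraries.

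Slc25a20, the acylcarnitine carrier, had the largest change of the shuttle at weeks 8, 12 and 16. It stood at 34.7 and 42.5 FPM in control and 65.1 and 64.6 FPM in LIDPAD libraries at week 8. The week 12 values were 48.0 and 39.5 FPM in control and 72.8 and 67.5 FPM in LIDPAD libraries. At week 16 they were 52.6, 37.5 and 36.6 FPM in control and 71.5, 70.3 and 62.0 FPM in LIDPAD libraries. Every LIDPAD library lay above every control library in these weeks, with 62.0 against 52.6 FPM for the nearest 2 at week 16. The gene rose by 0.75 ± 0.12, 0.68 ± 0.12 and 0.70 ± 0.14 on the log2 scale (limma adjusted p = 0.0222, 0.00778 and 0.00320). The week 8 call was lost without either LIDPAD library (0.74 and 0.76) and the week 12 call without LIDPAD library 1 (0.63); the week 16 call held in all fits that left out 1 library. At weeks 1 and 4 the changes were 0.33 ± 0.12 and 0.78 ± 0.16 (adjusted p = 0.267 and 0.154). At week 32 the values ran over 54.2, 48.6, 39.7 and 61.5 FPM in control and 24.0, 41.6, 37.7, 67.6 and 63.2 FPM in LIDPAD libraries. LIDPAD libraries 4 and 5 were higher than every control and library 1 was lower than every other library. The change was -0.20 ± 0.27, and 0.01 without LIDPAD library 1. At week 48 it was 0.27 ± 0.10, with the diets apart (adjusted p = 0.111, limma), and it passed without control library 3 (0.29). The number of all genes called at week 48 also turned on single libraries (134 to 5714).

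Cpt2, which rebuilds acyl-CoA inside the mitochondrion, rose at weeks 8, 12 and 16 as well. Its week 8 level was 43.8 and 55.8 FPM in control and 76.5 and 76.9 FPM in LIDPAD libraries. At week 12 it was 47.8 and 55.8 FPM in control and 69.5 and 73.0 FPM in LIDPAD libraries. At week 16 it was 69.0, 51.0 and 58.2 FPM in control and 74.5, 82.8 and 76.0 FPM in LIDPAD libraries. The diets did not overlap in any of the 3 weeks, and the changes were 0.63 ± 0.13, 0.46 ± 0.12 and 0.40 ± 0.12 (limma adjusted p = 0.0453, 0.0285 and 0.0251). These are the least stable of the shuttle's calls: those of weeks 8 and 12 were lost without either LIDPAD library (0.63 and 0.63, then 0.50 and 0.43), and that of week 16 without any library but control 1 (0.29 to 0.43). At week 32 Cpt2 was at 87.4, 76.1, 59.4 and 63.4 FPM in control and 25.3, 63.0, 45.6, 60.5 and 60.0 FPM in LIDPAD libraries. LIDPAD library 1 held less than any other library of the series, and libraries 2, 4 and 5 lay around the lowest controls (-0.54 ± 0.25, adjusted p = 0.138; -0.31 without LIDPAD library 1). At week 48 the diets overlapped (0.07 ± 0.09).

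**Figure D2:**
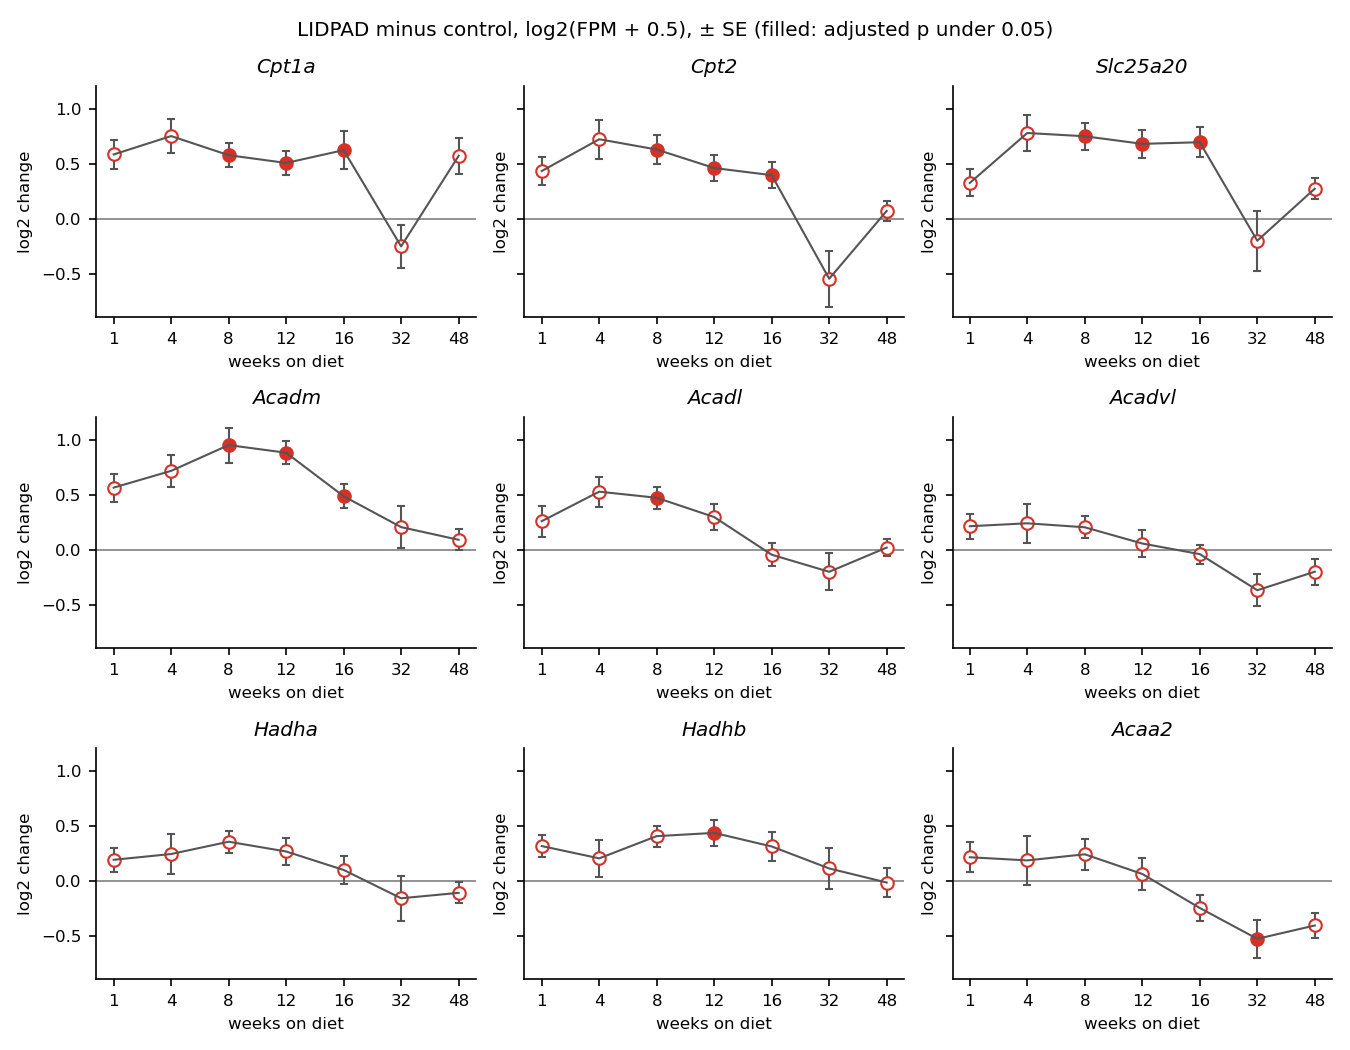
Change of each gene by weeks on diet, on the log2(FPM + 0.5) scale, LIDPAD less control, with bars of ± SE from limma; filled points have an adjusted p under 0.05. The shuttle genes and Acadm lie between 0.33 and 0.95 at weeks 1 to 16, and all 9 genes lie lower at week 32 than at week 8; on the scale over genes outside the mitochondrial genome, 5 of the 7 negative values at week 32 are above 0.

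Among the dehydrogenases, which begin each round and differ in the chain length they prefer, the size of the change followed the order Acadm, Acadl, Acadvl at weeks 1 to 12, an order that was not tested. Acadm, for medium chains, rose at weeks 8, 12 and 16. It was at 101 and 110.1 FPM in control and 174 and 141 FPM in LIDPAD libraries at week 1. At week 4 it was at 135 and 124 FPM in control and 218 and 209 FPM in LIDPAD libraries. All LIDPAD libraries were higher than the controls in both weeks, with changes of 0.56 ± 0.13 and 0.72 ± 0.15 (adjusted p = 0.0889 and 0.154, limma). The week 8 values were 105 and 144 FPM in control and 248 and 229.6 FPM in LIDPAD libraries. The week 12 values were 135 and 138 FPM in control and 246 and 258 FPM in LIDPAD libraries. At week 16 they were 212, 177 and 195 FPM in control and 252, 309 and 259.7 FPM in LIDPAD libraries. The replicates of week 12 were the closest together, and the diets were apart in all 3 weeks. The changes were 0.95 ± 0.16, 0.88 ± 0.10 and 0.49 ± 0.11 (limma adjusted p = 0.0247, 0.000978 and 0.00711). The calls of weeks 12 and 16 held in every fit that left out 1 library (0.85 to 0.91 and 0.40 to 0.55), and that of week 8 was lost without either LIDPAD library (0.90 and 1.01).

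At week 32 Acadm was at 191, 162, 121 and 170.4 FPM in control and 132, 204, 159.5, 226 and 214 FPM in LIDPAD libraries. At week 48 it was at 165, 202 and 186 FPM in control and 188, 197, 205 and 192 FPM in LIDPAD libraries. The diets overlapped in both weeks, with changes of 0.21 ± 0.19 and 0.09 ± 0.10 (adjusted p = 0.465 and 0.602). The controls of week 48 all lay above those of week 1, in tables that were normalized separately.

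Acadl, for long chains, rose at week 8 alone of the 7 weeks, from 64.0 and 59.7 FPM in control and 88.4 and 83.6 FPM in LIDPAD libraries. The change was 0.47 ± 0.10 (limma adjusted p = 0.0449) and was lost without either LIDPAD library (0.43 and 0.51). It was 0.26 ± 0.14, 0.53 ± 0.13 and 0.30 ± 0.11 at weeks 1, 4 and 12, with the diets apart at weeks 4 and 12. At week 16 the diets overlapped, at 100.2, 84.1 and 109.9 FPM in control and 96.0, 94.9 and 92.6 FPM in LIDPAD libraries. The controls held both the lowest and the highest value, and the change was -0.04 ± 0.11, or 0.16 on the scale over genes outside the mitochondrial genome. At weeks 32 and 48 it was -0.20 ± 0.17 and 0.02 ± 0.08.

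Acadvl, for very long chains, passed in no week. Its week 8 values were 88.5 and 97.2 FPM in control and 105 and 108 FPM in LIDPAD libraries, and those of week 16 136, 128 and 123 FPM in control and 122, 124 and 129 FPM in LIDPAD libraries. The diets were apart by a few FPM at week 8 (0.20 ± 0.10, adjusted p = 0.268) and overlapped at week 16 (-0.04 ± 0.09). At week 32 Acadvl was at 112, 102, 97.2 and 107 FPM in control and 64.2, 80.5, 71.0, 97.7 and 97.1 FPM in LIDPAD libraries. LIDPAD libraries 1 to 3 were below every control, and libraries 4 and 5 lay beside the lowest one (-0.37 ± 0.14, adjusted p = 0.0830). At week 48 the change was -0.20 ± 0.12, and it passed without control library 3 (-0.32). Between 134 and 5714 genes in all were called at that week when single libraries were left out.

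The trifunctional protein carries the hydration, the second dehydrogenation and, in its beta subunit, the thiolysis of long chains. Hadha, the alpha subunit, passed in no week. It was at 160.4 and 169 FPM in control and 209 and 212 FPM in LIDPAD libraries at week 8, with the diets apart (0.36 ± 0.10, adjusted p = 0.0898, limma). Hadhb, the beta subunit, was at 117 and 122 FPM in control and 156 and 160.1 FPM in LIDPAD libraries in the same libraries (0.41 ± 0.10, adjusted p = 0.0599). At week 12 Hadhb was at 148 and 122 FPM in control and 177 and 186 FPM in LIDPAD libraries. Both LIDPAD libraries lay above both controls, and the gene rose by 0.44 ± 0.12 (limma adjusted p = 0.0437), a call lost without either LIDPAD library (0.47 and 0.40). Hadha changed by 0.27 ± 0.12 in the same week (adjusted p = 0.191). At week 32 Hadha was at 214, 196, 182 and 226 FPM in control and 116, 222, 155, 229 and 223 FPM in LIDPAD libraries, with LIDPAD library 1 lowest and library 4 highest (0.0056 without LIDPAD library 1), and Hadhb changed by 0.11 ± 0.19. At week 48 the changes were -0.11 ± 0.10 and -0.02 ± 0.13, and the diets overlapped.

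Acaa2, the thiolase that cleaves shorter chains and the most abundant of the 9, was the 1 member that fell. At week 1 it was at 320.5 and 336 FPM in control and 426 and 339.9 FPM in LIDPAD libraries. At week 8 it was at 338 and 424 FPM in control and 441 and 455 FPM in LIDPAD libraries. The LIDPAD libraries were slightly above the controls in both weeks, with changes of 0.21 ± 0.13 and 0.24 ± 0.14 (adjusted p = 0.489 and 0.348). At week 4 it was at 459 and 326 FPM in control and 452 and 429 FPM in LIDPAD libraries, and at week 12 at 486 and 377 FPM in control and 460.4 and 434 FPM in LIDPAD libraries. The controls of these weeks spanned the LIDPAD values (0.19 ± 0.22 and 0.06 ± 0.14). At week 16 it was at 542, 453 and 448 FPM in control and 373, 453 and 389.8 FPM in LIDPAD libraries, where the highest LIDPAD library reached the lower controls (-0.25 ± 0.12, adjusted p = 0.145).

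At week 32 Acaa2 was at 429.6, 359.6, 369.8 and 441 FPM in control and 218, 262, 236, 354 and 337 FPM in LIDPAD libraries. All 5 LIDPAD libraries lay below all 4 controls, and the gene fell by 0.53 ± 0.17 on the log2 scale (limma adjusted p = 0.0428). The call was lost without any of 7 of the 9 libraries (-0.58 to -0.44 over those that lost it), which were all but LIDPAD 4 and 5. Within set B the difference was -0.69, and within set C, with 1 control library that is assumed to vary like the rest, it was -0.35. On the scale over genes outside the mitochondrial genome it was -0.10. At week 48 it was at 465, 461 and 397 FPM in control and 295, 348, 343 and 346 FPM in LIDPAD libraries. Again no LIDPAD library reached a control, and the change of -0.41 ± 0.11 did not pass with all libraries (adjusted p = 0.0559, limma). It passed without control library 3 (-0.48), which stood apart in its markers. Leaving out single libraries moved the number of all genes called at week 48 over 134 to 5714.

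Per kilobase of the principal transcript, Acaa2 had the highest level, with a median of 282 FPM per kb over the 18 control libraries (range 211 to 358) and 239.8 FPM per kb over the 20 LIDPAD libraries (144 to 304). Its control range overlapped that of no other member. Then followed, in control livers, Acadm (median 74.8, range 49.4 to 104 FPM per kb), Hadhb (66.7, 49.2 to 98.2), Hadha (50.3, 35.0 to 72.1), Acadvl (48.0, 35.0 to 62.7), Cpt1a (44.6, 32.5 to 65.2) and Acadl (39.6, 24.3 to 57.4). Cpt2 (23.8, 17.7 to 36.9) and Slc25a20 (23.4, 19.1 to 34.5) had the lowest levels. Each of these overlapped its neighbours in the order. In LIDPAD livers Cpt1a stood above Hadha, at a median of 64.7 against 53.5 FPM per kb, and Slc25a20 above Cpt2, at 35.1 against 28.6. These levels join tables that were normalized separately.

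Over all 7 weeks, a joint limma fit of the 14 group means called the mean diet effect above 0 for 6 of 9 members, against 22.1% of 16439 genes. Acadm had the largest, at 0.56 ± 0.07 (adjusted p = 2.79e-07), then Cpt1a at 0.48 ± 0.08 (2.99e-05), Slc25a20 at 0.47 ± 0.09 (0.000246), Cpt2 at 0.31 ± 0.09 (0.00648), Hadhb at 0.25 ± 0.07 (0.00624) and Acadl at 0.19 ± 0.06 (0.0110). These 6 calls held under every alternative run on this fit, including each fit that left out 1 library. Hadha had 0.13 ± 0.07 (adjusted p = 0.171), Acadvl 0.02 ± 0.06 (0.848) and Acaa2 -0.07 ± 0.07 (0.455).

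The diet effect differed between early and late feeding. Its mean over weeks 32 and 48 was lower than over weeks 1 to 12 in all 9 members and passed in 6, against 6.73% of genes below 0. The largest difference was that of Cpt2, with -0.80 ± 0.18 (adjusted p = 0.00306, limma), from a mean change of 0.56 in the early weeks to -0.24 in the late ones. Acaa2 differed by -0.64 ± 0.14 (0.00203), from 0.18 to -0.47, and Acadm by -0.63 ± 0.14 (0.00240), from 0.78 to 0.15. Slc25a20 differed by -0.60 ± 0.20 (0.0314), Acadl by -0.48 ± 0.12 (0.00638) and Acadvl by -0.46 ± 0.12 (0.00545). Cpt1a (-0.44 ± 0.17, adjusted p = 0.0601), Hadha (-0.40 ± 0.15, 0.0586) and Hadhb (-0.29 ± 0.15, 0.166) did not pass. The early weeks are all of set A and the late weeks of sets B and C, so set and duration cannot be told apart.

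This difference depended on the scale. The total of FPM outside the mitochondrial genome was lower in LIDPAD libraries (623100 FPM at week 32 against 843800 FPM in controls), and scaling over those genes alone moved the median change of all genes to 0.18, 0.20, 0.45 and 0.30 at weeks 12, 16, 32 and 48. The share of called genes that were higher in LIDPAD went from 68.8 to 82.9% at week 8, 59 to 81.8% at week 12, 57.6 to 83.4% at week 16, 67.2 to 95.3% at week 32 (50.7% with quantile normalization) and 66.2 to 93.5% at week 48. On that scale 1 of the 6 late-minus-early calls held, Acaa2 with -0.36, and Cpt2 stood at -0.52, Acadm at -0.35, Slc25a20 at -0.32, Acadl at -0.20 and Acadvl at -0.18. With quantile normalization 3 held (Cpt2, Acadvl and Acaa2). The sign stayed below 0 in all 9 members under both. Without LIDPAD libraries 1 to 3 of week 32, a fit added after seeing the data, 5 of the 6 held, and Slc25a20 (-0.31) did not.

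A test across all 7 weeks at once (limma F test) called 1 of 9 members, Cpt2 (F = 4.71, adjusted p = 0.0268), against 10.7% of genes, and 7 had an unadjusted p under 0.05. The count ran from 0 to 7 when single libraries were left out: 0 without control 2 or LIDPAD 2 of week 4 or control 1 or 2 of week 32, 2 without any of control 1 of week 12, control 2 or 3 of week 16, LIDPAD 1 of week 32 and control 1 or 2 of week 48, 3 without control 1 of week 4 or control 2 of week 8, 4 without control 3 of week 32 or control 3 of week 48, 5 without LIDPAD 5 of week 32 and 7 without LIDPAD 4 of week 32. Between weeks 32 and 48 the diet effect differed in 0 of 9 members by limma and by edgeR (0.219% of genes by limma; 2 members had an unadjusted p under 0.05), with Cpt1a at 0.82 ± 0.24 (adjusted p = 0.121).

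**Figure D3:**
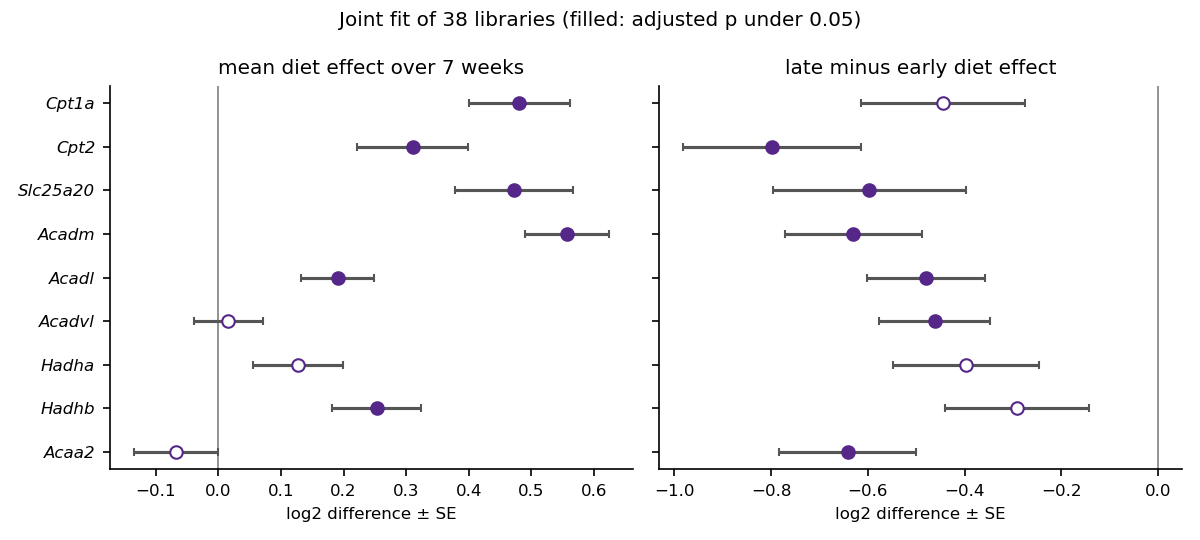
Joint fit of all 38 libraries: the mean diet effect over 7 weeks and the late minus early difference of the diet effect for each gene, in log2 units with bars of ± SE; filled points have an adjusted p under 0.05. The mean effect is above 0 for 8 of 9 genes, with Acaa2 just below 0 but above 0 under rescaling and quantile normalization and Acadvl below 0 with edgeR, and the late minus early difference is below 0 for all 9.

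Differences between members do not depend on the scaling of a library. They were chosen after the values were seen and are given as a description. How often other gene pairs lie apart was not counted. At weeks 1 to 12, with 2 libraries per diet, 21.3 to 29.3% of single genes had every LIDPAD library above every control library. The log2 ratio of Acadm to Acaa2, the dehydrogenase and the thiolase of shorter chains, ran from -1.66 to -1.60 in control and from -1.29 to -1.27 in LIDPAD libraries at week 1. At week 16 it ran from -1.35 to -1.20 in control and from -0.58 to -0.55 in LIDPAD libraries. At week 48 it ran from -1.49 to -1.09 in control and from -0.85 to -0.65 in LIDPAD libraries. In all 7 weeks every LIDPAD library lay above every control library, and the difference of means was between 0.35 (week 1) and 0.82 (week 12). This includes weeks 32 and 48, where the diets overlapped in Acadm itself. In both of these weeks Acaa2 by itself was lower in every LIDPAD library than in every control library.

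The log2 ratio of Acadm to Acadvl was apart in 6 of 7 weeks, by 0.35 to 0.82, and that of Cpt1a to Acaa2 in 6 of 7, by 0.34 to 0.98. Cpt1a against Cpt2, the first and last steps of the shuttle, was apart in 1 of 7 weeks, week 48, by 0.50. Hadhb against Hadha, which share a start region, was higher in every LIDPAD library in 5 of 7 weeks, by 0.05 at week 8 and 0.27 at week 32, and overlapped at weeks 4 and 48. For Hadhb and Hadha the largest difference is smaller than that of Acadm and Acaa2 in any week.

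**Figure D4:**
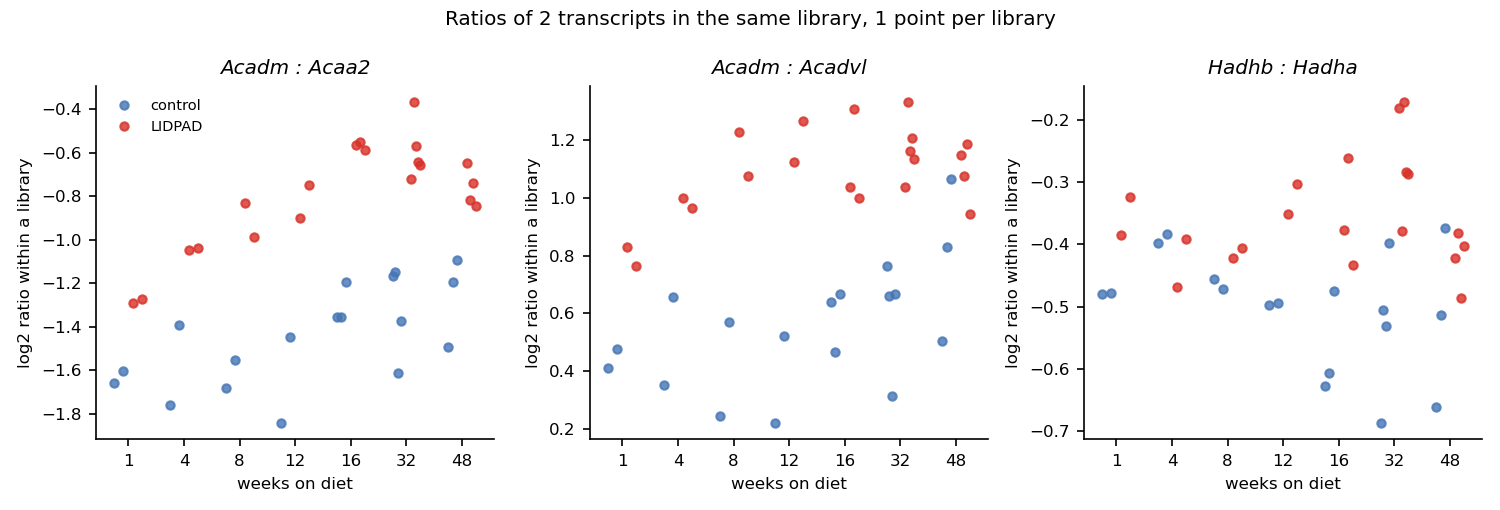
Log2 ratios between members in each library by weeks on diet; each point is 1 library of control or LIDPAD. For Acadm against Acaa2 the LIDPAD points lie above the control points in all 7 weeks.

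Within weeks, members differed in how closely they moved together. Over the 38 libraries, after subtracting each week's mean, Pearson's r was highest between Acadvl and Acaa2 (0.92), then between Hadha and Hadhb (0.87) and between Slc25a20 and Acadm (0.85), and lowest between Cpt1a and Acaa2 (0.17) and between Acadm and Acaa2 (0.26). These libraries share diet, depth and set, so r describes them only. Genes outside the 9 whose profile was among the most like the members' mean were Mgll (r = 0.92 over 38 libraries), a monoacylglycerol lipase, Slc27a2 (0.92), an acyl-CoA synthetase, Mmd (0.91), Decr1 (0.91), which handles unsaturated fatty acids in mitochondria, Rmdn3 (0.89), Abhd3 (0.89) and Eci1 (0.89), an enoyl-CoA isomerase. Mgll changed by 1.20 at week 8 and by -0.87 at week 32.

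Counts over gene lists are given beside the share of all genes tested in the same week. Values of list genes on the scale over genes outside the mitochondrial genome are not reported here. On that scale the median change of all genes was 0.45 at week 32 and 0.30 at week 48, which bears on late falls. From week 1 to week 48 limma called 0.726, 0.121, 3.85, 8.99, 16.3, 18.0 and 6.54% of genes higher in LIDPAD and 1.27, 0.166, 1.75, 6.25, 12.0, 8.82 and 3.34% lower.

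Of 18 other genes of mitochondrial beta-oxidation, all tested, 5 rose at week 8 (3.85% of all genes did), 8 at week 12 (8.99%) and 6 at week 16 (16.3%). At week 32, 3 of 18 rose, near the 18.0% of all genes, and at week 16, 2 of 18 fell, near the 12.0%. At week 1 the count was 1, and at weeks 4 and 48 it was 0 with limma and with edgeR and 2 and 1 with DESeq2 (11 and 2 genes had an unadjusted p under 0.05). The median change was 0.42 at week 12, against -0.00133 over all genes, and 0.01 at week 32, against 0.04. Hadh, the dehydrogenase of short hydroxyacyl-CoA, stood at 115 ± 5.12 FPM in control and 175 ± 3.39 FPM in LIDPAD livers at week 8 (SD, n = 2 each) and rose by 0.61 ± 0.10 (limma adjusted p = 0.0223). Acad12 rose at weeks 12, 16 and 32, from 5.95 ± 1.99 FPM (SD, n = 4) to 27.4 ± 21.1 FPM (SD, n = 5) at week 32, where the spread was wide. Etfa, which carries electrons from the dehydrogenases, and Mut, of propionate breakdown, fell at week 16 by 0.29 and 0.26. Over the 7 weeks the mean diet effect was called above 0 in 10 of 18, against 22.1% of all genes. It was called below 0 in 0, against 15.4%.

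Of the 8 ketone genes, all tested, 2 rose and 1 fell at week 8, 4 rose at week 12, 4 rose and 1 fell at week 16, 2 rose at week 32, and 2 rose and 1 fell at week 48. The 1 of 8 that fell at week 16 is near the 12.0% of all genes, and the 2 of 8 that rose at week 32 near the 18.0%. At weeks 1 and 4 limma and edgeR called 0 and DESeq2 0 and 1 (3 and 6 genes had an unadjusted p under 0.05). Bdh1, which reduces acetoacetate and is named here after its values were seen, rose at weeks 8, 12 and 16, by 0.89, 0.79 and 0.52.

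Slc16a7, a monocarboxylate transporter, rose at all weeks from 8 to 48, by 0.76 to 1.14. Oxct1, which uses ketone bodies rather than making them and is low in normal liver, rose from week 12 on. It stood at 3.15 ± 1.10 FPM (SD, n = 4) in control and 15.9 ± 5.62 FPM (SD, n = 5) in LIDPAD livers at week 32, a change of 2.16 ± 0.29 (limma adjusted p = 0.000442). Slc16a6, another monocarboxylate transporter, fell at week 8 by 1.14. Bdh2 fell at week 16 by 0.89 and at week 48 by 1.55.

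Genes that supply the shuttle moved in both directions. Of the list of 13, 12 were in the tables and 10 were tested in each week: 3 rose at week 8, 3 rose and 2 fell at week 12, and 2 rose and 4 fell at week 16. At week 1, 1 rose and 2 fell, at week 32, 2 fell, and at week 48, 1 fell. The 2 of 10 that rose at week 16 are near the 16.3% of all genes. At week 4 limma and edgeR called 0 and DESeq2 4, with an unadjusted p under 0.05 in 6. Slc22a5, the carnitine transporter, rose at weeks 1, 8, 12 and 16, from 8.88 ± 1.00 FPM to 19.1 ± 2.29 FPM at week 8 (SD, n = 2 each). Acsl5, an acyl-CoA synthetase, fell at weeks 1, 12 and 16, from 265 ± 43.0 FPM to 142 ± 4.48 FPM at week 1 (SD, n = 2 each), and Acsl3 fell at weeks 1, 12, 16 and 48.

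Of the 14 regulators, all tested, 1 fell at week 1, 1 rose and 1 fell at week 8, 3 fell at week 12, 1 rose and 7 fell at week 16, 7 fell at week 32 and 1 fell at week 48. Of all genes 12.0% fell at week 16 and 8.82% at week 32, and 1 of 14 at week 48 is near the 3.34% of all genes. At week 4 limma and edgeR called 0 and DESeq2 3, with an unadjusted p under 0.05 in 7. Acacb, the carboxylase whose malonyl-CoA inhibits CPT1A, fell at weeks 1, 12, 16 and 32. It stood at 185 ± 75.7 FPM in control and 31.5 ± 1.45 FPM in LIDPAD livers at week 1 (SD, n = 2 each; change -2.48 ± 0.24, limma adjusted p = 0.00541). Ppara itself rose at week 8, from 88.5 ± 11.4 to 139 ± 15.5 FPM (SD, n = 2 each; 0.65 ± 0.13, adjusted p = 0.0430). Hnf4a, a hepatocyte factor, fell at weeks 16, 32 and 48, by 0.54, 0.98 and 0.55.

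Of 13 genes that PPAR alpha regulates outside the mitochondrial pathway, 12 were tested. At weeks 1, 4, 8, 12, 16 and 48, 5, 3, 9, 9, 6 and 4 rose, against 0.726, 0.121, 3.85, 8.99, 16.3 and 6.54% of all genes. At week 32, 2 of 12 rose, near the 18.0% of all genes, and 2 fell, and at week 48, 1 fell. Cd36, a fatty acid receptor, rose at all weeks but 4 and 48, to 268 ± 75.2 FPM (SD, n = 5) against 29.0 ± 14.9 FPM (SD, n = 4) at week 32. Acot2, a mitochondrial thioesterase, rose at weeks 1, 8, 12, 16 and 48. Angptl4 and Fabp1 fell at week 32, by 1.30 and 1.62. Of the 13 genes of peroxisomal oxidation, all tested, 7 rose at week 8, 8 at week 12, 6 at week 16, 1 at week 32 and 3 at week 48, 1 fell at week 32, and 1 rose at week 4. At week 1 limma and edgeR called 0 and DESeq2 4, with an unadjusted p under 0.05 in 7. Acaa1a, a peroxisomal thiolase, rose by 1.47 at week 8, 1.45 at week 12, 1.16 at week 16 and 0.65 at week 48. Pex11a rose at weeks 4 to 16 and at week 48.

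A list of 20 nuclear-coded mitochondrial genes, of the respiratory chain, the citrate cycle and the outer membrane (Vdac1 and Tomm20), was tested in full. At weeks 1, 4, 8 and 12 limma and edgeR called 0 and DESeq2 1, 0, 0 and 0, with an unadjusted p under 0.05 in 1, 0, 0 and 0. Then 1 rose and 2 fell at week 16 (16.3 and 12.0% of all genes). At each of weeks 32 and 48, 1 of 20 fell, near the 8.82 and 3.34% of all genes. Of all genes 1.99, 0.287 and 5.60% were called at weeks 1, 4 and 8, so that 0 of 20 is near the share of all genes there, while 15.2% were called at week 12. At weeks 1 to 12 their median change was between -0.06 and 0.09. Fh1, the fumarase, fell at weeks 32 and 48 by 0.50 and 0.43. Scaling over genes outside the mitochondrial genome moved the median of all genes to 0.45 and 0.30 in these weeks. Vdac1 fell at week 16 by 0.31, and Tomm20, of the outer membrane import complex, rose at week 16 by 0.36.

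**Figure D5:**
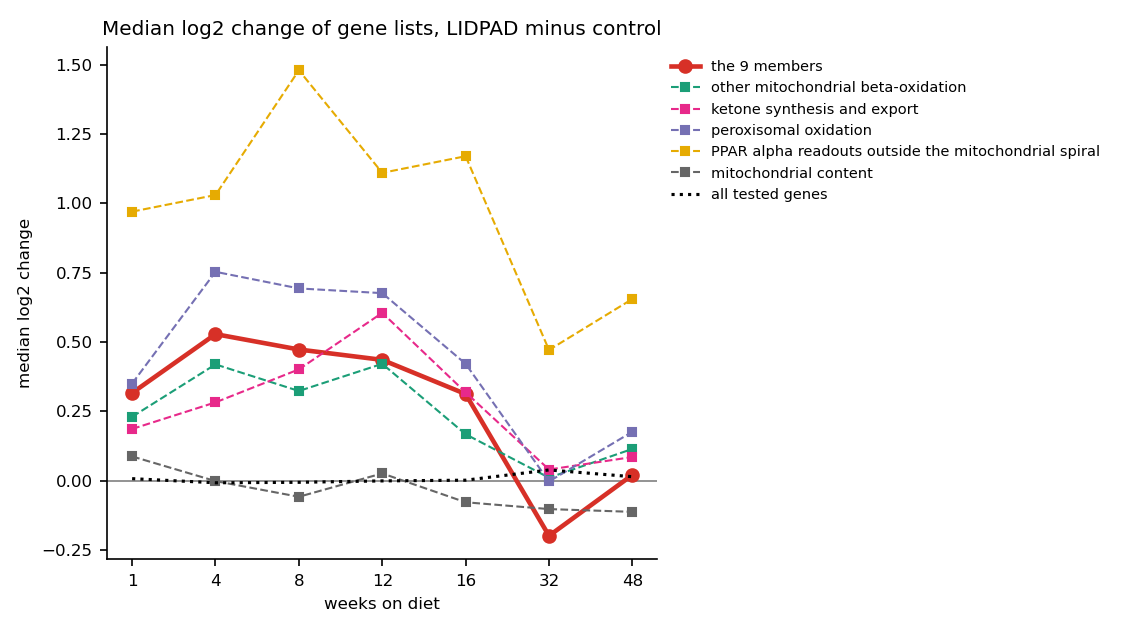
Median log2 change of the 9 members and of each gene list by weeks on diet, LIDPAD minus control. The median of the members lies at 0.31 to 0.53 from week 1 to week 16, at -0.20 at week 32, where the signs of 5 members turn on the scale over genes outside the mitochondrial genome, and at 0.02 at week 48.

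Cell type markers and clock genes moved with the diet beside these changes, and their part in the results was not tested. Macrophage markers summed to 144 to 157 FPM in control and 271 to 295 FPM in LIDPAD libraries at week 8, where 8 of 10 rose, and to 106 to 195 FPM and 368 to 1853 FPM at week 32 (at most 504 FPM without LIDPAD library 2), where 8 of 10 rose. Stellate cell and fibroblast markers summed to 282 to 334 FPM and 524 to 882 FPM at week 32, where 5 of 8 rose, and cholangiocyte markers to 13.3 to 51.8 FPM and 154 to 455 FPM, where 4 of 5 rose. Of the 7 hepatocyte markers, 1 fell at week 8, 3 at week 12, 4 at week 16, 3 at week 32 and 2 at week 48. Of all genes 1.75, 6.25, 12.0, 8.82 and 3.34% fell in these weeks. The hepatocyte markers summed to 83900 to 96350 FPM in control and 48830 to 56330 FPM in LIDPAD libraries at week 16. Of the adipocyte markers, Cfd alone was tested and rose in every week, while Adipoq was 0 in 27, Plin1 in 28 and Lep in 36 of 38 libraries. The log2 ratio of Arntl to Dbp, clock genes that peak at different hours, was lower in every LIDPAD library than in every control library at weeks 1, 4, 8, 12 and 48, with differences of means of -4.29, -4.78, -3.86, -3.20 and -2.41. At week 16 the diets overlapped (-3.27 to -1.62 in control, -3.45 to -2.86 in LIDPAD), and at week 32 all LIDPAD libraries (1.52 to 3.54) lay within the control range (1.13 to 5.20). Of the 16 clock genes, 6 rose and 2 fell at week 1, and 6 rose and 4 fell at week 12. Of all genes 0.726% rose and 1.27% fell at week 1, and 8.99% rose and 6.25% fell at week 12. Cry1 fell at all weeks but 4 and 8, Arntl at weeks 4, 12, 16 and 48, and Npas2 at weeks 1 and 12. The hour of collection is not in the labels.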

How the data were processed

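RNA came from liver by TRIzol and a column kit, per the labels' protocols. The deposited tables, 1 per duration with 54532 Ensembl genes each, hold a signal that the authors call FPM. No source used here describes its making, but in each column the values are whole multiples of 1 step and the totals differ, as counts divided by size factors would be. The submitters' processing notes name HISAT2, featureCounts, DESeq2 and GRCm38 but give neither their roles nor versions. Dividing by the step of each column gave whole reads (to 0.02) in 100% of values, including 4 columns with a step near 0.1 FPM. A value of 2 reads occurred 5.35 times as often as a value of 1. The mean chi-square per gene over column pairs was 2.03 to 2.16 within blocks of 4 columns and at least 2.52 between 2 blocks of a group (single pairs 1.99 to 2.21 within and from 2.40 between), so each block was averaged to 1 library. Depth was 10870033 to 53802026 reads, and genes of the mitochondrial genome took 21.8 to 36.1% of them.

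Each week was fitted with limma 3.58.1 (R 4.3.3), two-sided, with a mean-variance trend, on log2(FPM + 0.5) for genes that reached 1 FPM in a number of libraries equal to the smaller group's size. Differences understate the change of low genes. A joint fit of 14 group means used genes passing in 2 libraries. P-values were adjusted over all genes tested (Benjamini-Hochberg, 0.05). With 2 libraries per group, the spread estimated over all genes carries the calls. As alternatives, the pseudocount was 0.1 or 1 and the filter 5 FPM or absent; others were rescaling over genes outside the mitochondrial genome, quantile normalization, no trend, the joint fit, a replicate block, library sets, single libraries left out, each column as a sample, and edgeR 4.0.16 (quasi-likelihood) and DESeq2 1.42.0 on the recovered reads. Fits were tested on simulated data. Positions and transcript lengths came from GENCODE vM21. Of the identifiers, 54409 had a symbol. Levels were summarised in Python 3.11.15 with pandas 2.3.3 and numpy 2.4.6 and drawn with matplotlib 3.10.9.

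The members, lists and tests were chosen with earlier results of these data known. Named genes are all 9 members. From each list they are the 2 genes with the smallest p for the mean diet effect and up to 2 called against the sign of the list's median. The 8 genes most like the members (at least 5 FPM) come under the rule too. Some genes that the rule or the lists hold are not reported here.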

Additional observations from a re-analysis of the deposited data

Results flagged for a closer look

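At week 48 LIDPAD library 1 held 294.7 FPM of Acaa2, well below the other 3 LIDPAD libraries, which lay together at 343 to 348 FPM. It was the 1 such value among 27 sets examined, the 9 genes in each of the 3 groups with at least 4 libraries, and chance alone marks about 1 in 20 sets. Without it the week 48 change of Acaa2 was -0.35 on the log2 scale, against -0.41 with all libraries.

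For 6 members the diet effect of weeks 32 and 48 differed from that of weeks 1 to 12 by a direct test of the difference (joint limma fit, adjusted p under 0.05). The differences on the log2 scale were -0.80 for Cpt2, -0.64 for Acaa2, -0.63 for Acadm, -0.60 for Slc25a20, -0.48 for Acadl and -0.46 for Acadvl. Cpt2 was also the 1 member whose diet effect differed among the 7 weeks (F = 4.71, adjusted p = 0.0268, limma). These calls depended on the scale: rescaling over genes outside the mitochondrial genome kept 1 of the 6 and quantile normalization 3. The F test called 0 members under either, without the filter, and with the replicate block. Early and late weeks were normalized in separate tables and belong to different library sets, which cannot be told apart from duration.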

How the results depend on the processing

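Settings are named by their change from the limma fit per week. Treating each of the 152 columns as a sample called 2839, 2925, 4857, 5335, 6530, 7342 and 5729 genes from week 1 to week 48, against 250, 38, 743, 2078, 3928, 3810 and 1462, and 9, 8, 9, 5 and 5 members at weeks 1, 4, 8, 32 and 48; parts of a library are no replicates. DESeq2 called 480, 308, 1264 and 2424 genes at weeks 1, 4, 8 and 48 and 2, 3, 2 and 2 members at weeks 1, 4, 32 and 48. Without a trend 63, 4 and 471 genes were called at weeks 1, 4 and 8, and 0, 2 and 2 members at weeks 8, 12 and 16. The joint fit called 10, 27, 241, 7214 and 2288 genes at weeks 1, 8, 12, 32 and 48 and 1, 1, 3 and 1 members at weeks 8, 12, 32 and 48. Without the filter 106, 478 and 1344 genes were called at weeks 4, 8 and 12, 2, 3 and 0 members at weeks 8, 12 and 32, and 0 members by the F test. Rescaling called 6284 and 2745 genes at weeks 32 and 48, 1 and 2 members at weeks 1 and 48, 0 by the F test and 1 for late minus early. Quantile normalization called 1, 3, 0 and 1 members at weeks 1, 8, 32 and 48, 0 by the F test and 3 for late minus early. At week 32 the set as a term called 2 members, set B alone 2, set C alone 3 (with 6904 genes), and leaving out LIDPAD 1 to 3, picked after seeing the data because they were low in most members, 0. That last choice and edgeR each gave 2 by the F test. The causes were not tested.

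The replicate block, with the library number as a term, called 383, 368 and 16 genes at weeks 1, 4 and 48, 1, 2, 2 and 0 members at weeks 1, 4, 8 and 32, and 0 by the F test. Whether the numbers pair the libraries is not known. Deviations of same-numbered libraries correlated at -0.18 to 0.17. With 2 libraries per diet the deviations mirror each other, so this check cannot exclude pairing.

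With 1 library left out, genes called ran over 33 to 1123, 39 to 855, 82 to 1665, 853 to 3104, 2810 to 4058, 2988 to 3629 and 134 to 5714 from week 1 to week 48, and members over 0 to 5, 0 to 4, 0 to 8, 1 to 7, 2 to 5, 0 to 1 and 0 to 4. They ran over 0 to 7 by the F test, 5 to 8 for late minus early and 6 to 7 for the mean effect. Where an arm was left with 1 library, it is assumed to vary like the other group.

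Signs turned only in values that had not passed. Rescaling gave 0.16 for Acadl and 0.17 for Acadvl at week 16, 0.18, 0.23, 0.23, 0.062 and 0.27 for Cpt1a, Slc25a20, Acadl, Acadvl and Hadha at week 32, 0.095, 0.18 and 0.28 for Acadvl, Hadha and Hadhb at week 48, and 0.11 for the mean effect of Acaa2. Quantile normalization gave 0.089 and 0.12 for Acadl and Acadvl at week 16, 0.11 for Hadha at week 32, 0.10 and 0.13 for Hadha and Hadhb at week 48, and 0.078 for the mean effect of Acaa2. Within set C Slc25a20 stood at 0.086 at week 32, and without LIDPAD 1 to 3 Cpt1a, Slc25a20, Acadl and Hadha stood at 0.053, 0.37, 0.11 and 0.15. edgeR gave -0.018 for Acadl at week 48 and -0.013 for the mean effect of Acadvl. With 1 library left out the ranges that crossed 0 were -0.060 to 0.43 (Acaa2, week 4), -0.078 to 0.19 (Acadvl, week 12), -0.12 to 0.25 (Acaa2, week 12), -0.0071 to 0.24 (Hadha, week 16), -0.15 to 0.042 (Acadl, week 16), -0.35 to 0.015 (Slc25a20, week 32), -0.24 to 0.0056 (Hadha, week 32), -0.025 to 0.068 (Acadl, week 48), -0.13 to 0.14 (Hadhb, week 48) and -0.014 to 0.047 (mean effect of Acadvl).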

Other observations

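In control livers the level of the dehydrogenases differed between tables. Acadl had a mean of 26.7 FPM per kb at week 1 (range 24.3 to 29.1 over 2 libraries), 51.2 at week 16 (43.9 to 57.4 over 3) and 51.1 at week 48 (47.9 to 54.5 over 3). Acadm had 51.6 FPM per kb at week 1 (49.4 to 53.8) and 95.2 at week 16 (86.4 to 104). For both genes the ranges of weeks 1 and 16 do not overlap. Cpt1a overlapped between these weeks, with 37.2 to 45.3 at week 1 and 32.5 to 56.1 at week 16. The tables were normalized separately, weeks 1 and 16 belong to different library sets, and the mice differed in age, so no test was made. In control libraries the log2 ratio of Arntl to Dbp ran from 2.9 to 3.90 at week 1 and from -3.27 to -1.62 at week 16. Its part in these levels was not tested.

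The log2 ratio of Acadl to Acadm, the long-chain against the medium-chain dehydrogenase, was lower in every LIDPAD library than in every control library in 6 of 7 weeks. The difference ran from -0.19 at week 4 to -0.58 at week 12, and the diets overlapped at week 48 (-0.07). At week 4 the diets all but touched, with -1.390 in the highest LIDPAD and -1.389 in the lowest control library. The ratio was chosen after the values were seen, and how often other gene pairs lie apart was not counted.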
